A study of Homo sapiens with 6 samples.

Results

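The SLC25 mitochondrial carrier genes are described here by Myc occupancy at their promoters. A gene was a member if GENCODE lists it as protein-coding under a symbol of SLC25A and a number, or as UCP1, UCP2, UCP3, MTCH1 or MTCH2, and 53 of 19785 protein-coding genes met this rule. No measured value entered it. The label holds for most members, but SLC25A17 is a carrier of peroxisomes, and MTCH1, MTCH2 and SLC25A46 sit in the outer mitochondrial membrane. The comparison set was the 325 other protein-coding genes with an SLC symbol, which encode transporters of the plasma membrane and other membranes.

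The study asked how Myc occupancy depends on TXNIP in MDA-MB-231, a human triple-negative breast cancer cell line. Myc was mapped by chromatin immunoprecipitation sequencing (ChIP-seq) in unedited parental cells and in TKO cells, which carry a CRISPR/Cas9 knockout of TXNIP (thioredoxin interacting protein) and come from clones grown out of single cells. Both lines grew in the same DMEM medium with fetal bovine serum, non-essential amino acids and penicillin-streptomycin, and the same anti-Myc antibody was used. There were 2 Myc libraries per line, called biological replicates by the study. The 2 input libraries, 1 per line, entered only as controls of the peak calling. Clonal origin and TXNIP status cannot be told apart, and no source gives the clone behind each TKO library.

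SLC25 proteins carry nucleotides, phosphate, carboxylates, amino acids, cofactors and metals across the inner mitochondrial membrane, mostly by exchange. They set which substrates reach the matrix for respiration, iron-sulfur cluster and heme synthesis and one-carbon metabolism. Myc binds DNA as a dimer with MAX, prefers the E-box CACGTG, and is known for raising the expression of genes for growth and mitochondrial function.

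Peaks, the regions where reads pile up over background, had been called per Myc library, with the single input library of its line as the control, so both lists of a line share that input. The parental lists held 3720 (replicate 1) and 5719 peaks (replicate 2), the TKO lists 27213 and 25887. Sequencing depth, recovered from the peak statistics, was 26.4 and 22.2 M reads for the parental libraries against 19.9 and 13.04 M for TKO, so the longer lists came from the shallower libraries. The list length moves with the counts given here. Lists cut to equal length were examined for the numbers of bound genes, the difference to other SLC genes, the peaks per gene and the E-box share, and for no other result.

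The E-boxes nearest to carrier summits are shown first, since they are the sequences Myc-MAX prefers. A summit is the base of a peak with most reads. Each run has 30 bases of the hg19 plus strand, 5′ to 3′, with CACGTG in capitals. Each site lies within 50 bp of a carrier summit in at least 1 library, and the sites were chosen after their values were seen. The letters of the site at SLC25A32 are not given. The last run, in front of SLC25A51, holds no CACGTG, and its capitals mark the bases from the summit of TKO replicate 2 to that of TKO replicate 1.
SLC25A25, chr9:130861142-130861171: ggctatggccggCACGTGtacgtcacagga
UCP2, chr11:73694615-73694644: ggccggcccccgCACGTGacaaggcagagc
SLC25A10, chr17:79678945-79678974: ccacgccgcacaCACGTGgcccccgccagg
SLC25A13, chr7:95951164-95951193: caccaacccagaCACGTGagcgcccgagcc
SLC25A51, chr9:37904351-37904470: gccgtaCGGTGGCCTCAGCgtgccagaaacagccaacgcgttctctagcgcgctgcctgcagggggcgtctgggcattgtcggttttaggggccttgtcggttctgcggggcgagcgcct

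More carrier promoters had a Myc peak in TKO than in parental cells. A promoter peak has its summit at most 1 kb from a transcription start site (TSS) of the gene, over its basic GENCODE transcripts. Of the 53 carrier genes, 10 had a promoter peak in parental replicate 1 and 8 in parental replicate 2, against 41 in TKO replicate 1 and 40 in TKO replicate 2. The 2 groups did not overlap. The shares were 18.9% and 15.1% in parental cells, where 12.2% and 12.9% of all protein-coding genes were called, and 77.4% and 75.5% in TKO, where 49.1% and 49.7% of all genes were called. On average 9 ± 1.41 (SD, n = 2) and 40.5 ± 0.707 (SD, n = 2) genes were bound, a ratio of 4.5 (exact two-sided permutation p = 0.333). That p is the smallest that 2 libraries against 2 allow, so no such comparison here could pass 0.05. Over all genes the ratio was 3.94. With each list cut to its 3720 peaks of highest fold, 10 and 5 carriers in the parental lists and 12 and 12 in the TKO lists kept a promoter peak, a ratio of 1.6.

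Carrier genes were bound in a larger share than the other SLC genes in each library. Of the 325 other SLC genes, 28 and 35 had a promoter peak in parental cells (8.62% and 10.8%) and 126 in each TKO library (38.8%). The carrier share was higher by 10.3 and 4.33 percentage points in the parental libraries and by 38.6 and 36.7 points in the TKO libraries. The mean of the 4 differences was 22.5 points, with the carriers higher in 4 of 4 libraries. The exact two-sided sign-change permutation test over the libraries gave p = 0.125, the smallest possible with 4. The difference was wider in TKO (37.6 ± 1.33 points, SD, n = 2) than in parental cells (7.29 ± 4.19 points, SD, n = 2), and the exact permutation test between the groups gave p = 0.333. The TKO to parental ratio of bound genes was 4 for the other SLC genes and 4.5 for the carriers. With equally long lists the mean difference was 8.01 points. Then 10 and 5 carriers were bound in the parental lists and 12 and 12 in the TKO lists. The counts for other SLC genes were 28 and 22 in the parental lists and 44 and 41 in the TKO lists. The difference in parental replicate 1 was then not below those in TKO, so the groups overlapped.

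**Figure D1:**
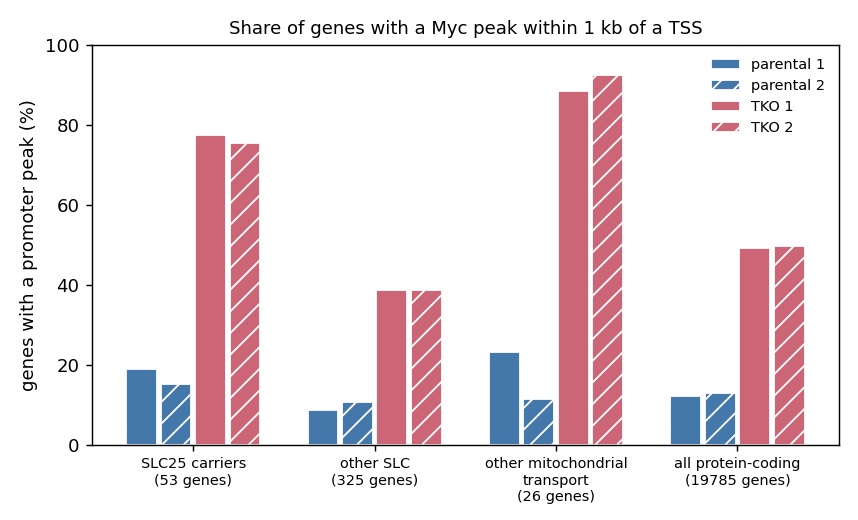
The bars give the percent of genes with a promoter peak (vertical axis, from 0) in each of the 4 Myc libraries, for carriers, other SLC genes, other mitochondrial transport genes and all protein-coding genes. Carriers stood at 15.1% to 18.9% in parental cells and at 75.5% to 77.4% in TKO, other SLC genes at 38.8% in TKO.

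The carrier promoters were also richer in CpG, a feature that the rule for members did not use. The CpG ratio, observed over expected CpG within 500 bp of the TSS of the canonical transcript, was at least 0.6 in 46 of 53 carriers (86.8%), in 60.6% of other SLC genes and in 66.0% of all genes with a value. Among the CpG-rich promoters alone, carriers were bound in 19.6%, 15.2%, 87.0% and 84.8% of genes in parental replicates 1 and 2 and TKO replicates 1 and 2. Of the 197 CpG-rich other SLC genes, 12.7%, 15.7%, 56.3% and 57.4% were bound in the same order, and of all CpG-rich genes 17.4%, 17.9%, 66.6% and 67.2%. Other mitochondrial transport genes were CpG-rich in 25 of 26 (96.2%), and 24%, 12%, 88% and 92% of those were bound. So high shares in TKO were not particular to the carriers. The difference of carriers to other SLC genes was then 6.87 and -0.519 points in parental cells and 30.6 and 27.4 points in TKO. Its mean was 16.1 (exact sign-change permutation p = 0.25). Among CpG-rich promoters the carrier share was below that of other SLC genes in parental replicate 2 and above it in the other libraries. The part of CpG content in these differences was not tested. The comparison of CpG-rich promoters was added after the data were seen.

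Carriers were sorted by the libraries in which they had a promoter peak. All 4 libraries had a peak at 7 carriers (13.2%, against 9.32% of all genes). Both TKO libraries and 1 parental library had a peak at 4 (7.55%, against 6.16% of all genes). Both TKO libraries and neither parental library had one at 26 carriers (49.1%, against 29.7% of all genes). A single TKO library had one at 7 carriers (13.2%, against 8.20% of all genes). At 9 carriers no library had one (16.98%, against 46.3% of all genes). No carrier had a peak in a parental library without peaks in both TKO libraries, and only 0.273% of all genes did.

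To compare heights between libraries, the number of reads at each summit was recovered from the authors' fold and p-value and divided by the recovered depth. This gives the summit RPM, the reads at the summit per M reads of depth, and the strongest promoter peak by fold stands for a gene. At the 7 carriers with a peak in all 4 libraries, every gene had both TKO values above both parental values, as did 99.0% of the 1843 genes of this kind. The median over the 7 genes was 1.51 and 1.62 RPM in the parental lists and 3.41 and 3.30 in the TKO lists. The group means were 1.57 ± 0.0770 and 3.35 ± 0.0785 (SD, n = 2 each), a ratio of 2.14 (exact permutation p = 0.333), and over all such genes the ratio was 2.55. Reads had been extended to 140 and 151 bp in parental cells and to 182 and 201 bp in TKO, taken from the narrowest peak of each list. Per base of extension the ratio was 1.63.

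**Figure D2:**
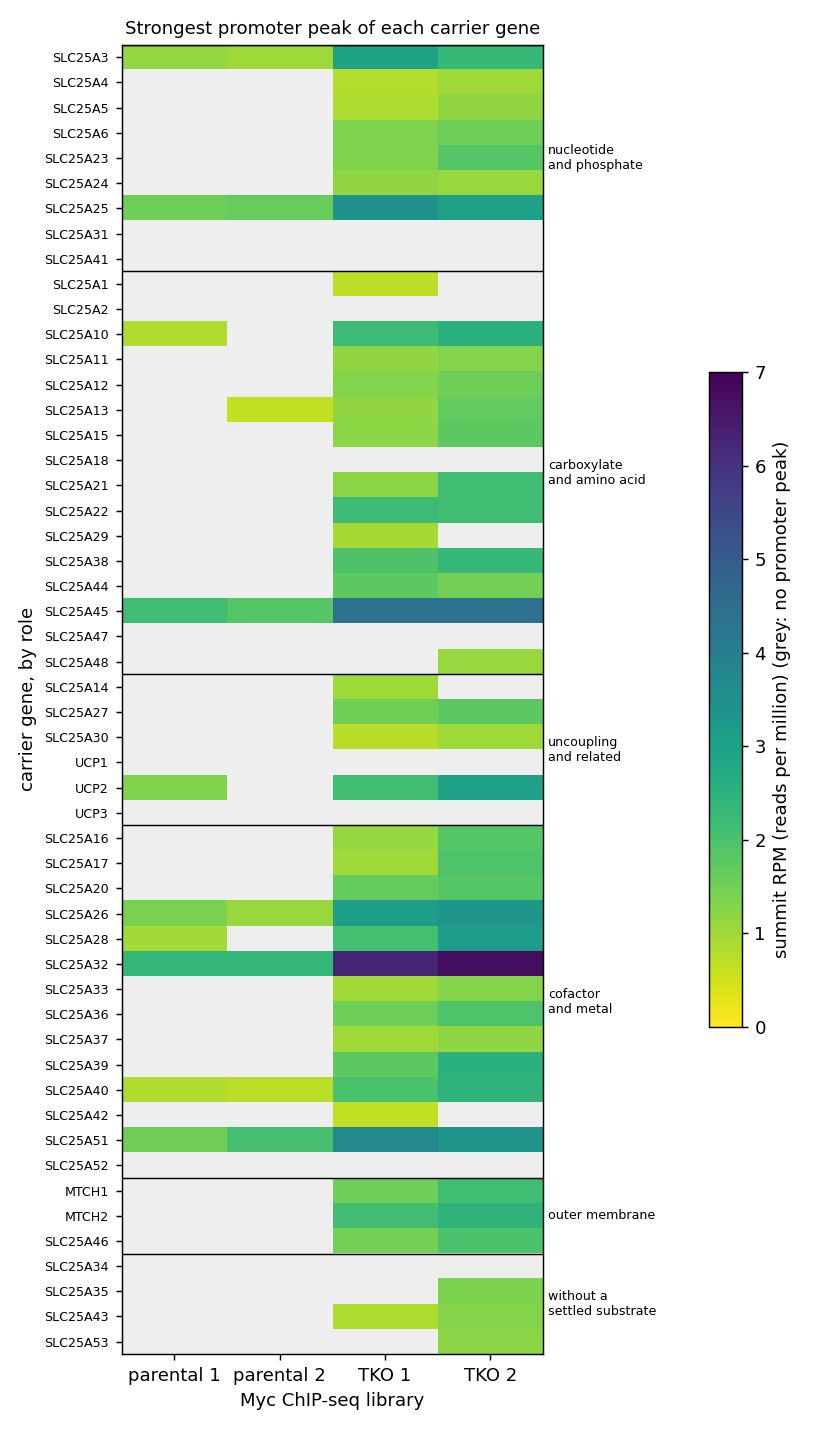
Each row is a carrier gene, 52 in all, grouped by role, and each column 1 Myc library, with colour for the summit RPM of the gene's strongest promoter peak and grey for no promoter peak. The darkest cells, at SLC25A32 in TKO, hold 6.27 and 6.75 RPM, and the parental columns are filled for 10 and 8 genes.

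**Figure D3:**
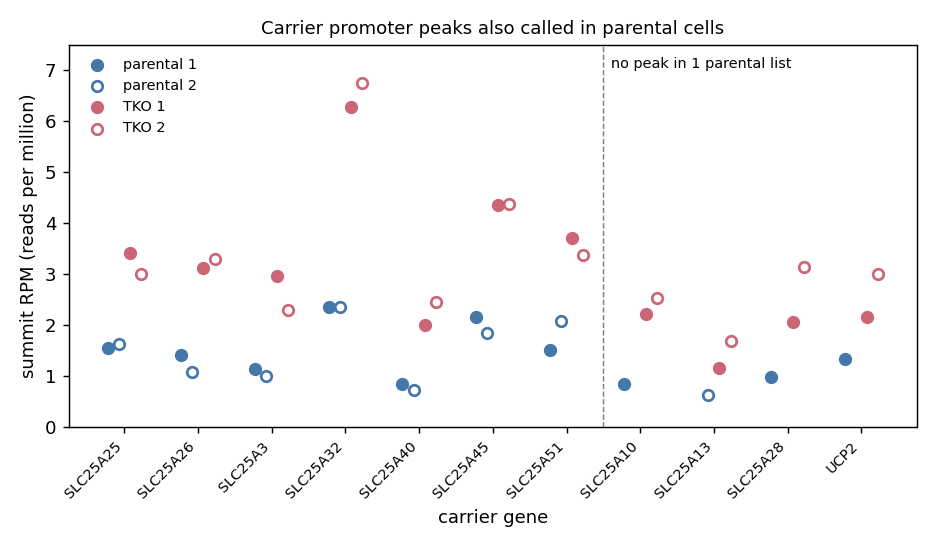
Points give summit RPM (vertical axis) for the 11 carriers with a promoter peak in at least 1 parental library, with filled points for replicate 1 and open points for replicate 2. In the 7 genes left of the dashed line all 4 libraries had a peak. Both TKO points lie above both parental points in each, from 2.01 and 2.45 at SLC25A40 to 6.27 and 6.75 at SLC25A32. The same held at 99.0% of all genes with a peak in all 4 libraries. The summits of a gene were not always at the same position, as at SLC25A13 and SLC25A28.

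Among the nucleotide and phosphate carriers, 7 of 9 genes had a promoter peak in each TKO library and 2 in each parental library. Those 2 were SLC25A3 and SLC25A25. Over all genes the shares were 49.1% and 49.7% in TKO and 12.2% and 12.9% in parental cells, which also stand beside the roles below. SLC25A3 is the phosphate carrier that feeds ATP synthase, and its summit RPM were 1.14 and 0.992 in the parental lists and 2.96 and 2.30 in the TKO lists. Each summit lay within 10 bp of the nearest of its 6 start sites, with offsets of -4, -4, 6 and 10 bp, which are not all from the same start site. The summits were at 98987460 in both parental libraries and at 98987480 and 98987513 in TKO. The peak of TKO replicate 1 spanned chr12:98987263-98987710. SLC25A25 is one of the ATP-Mg/phosphate carriers, which change the size of the matrix adenine nucleotide pool. It had 1.55 and 1.62 RPM in the parental lists and 3.41 and 2.99 in the TKO lists. The E-box printed for it lay 7 and 42 bp from the parental summits and 52 and 33 bp from the TKO summits, in an intron of the longer transcripts at an offset of -194 bp from the nearest start site. The groups did not overlap at either gene, as at 99.0% of the 1843 genes with a peak in all 4 libraries.

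The paralogs of SLC25A25 differed among themselves. SLC25A23 and SLC25A24 had a peak in both TKO libraries only, with 1.35 and 1.84 RPM at SLC25A23 and 1.15 and 1.07 at SLC25A24. SLC25A41 had no peak in any list. The summits of SLC25A23 lay far upstream, at offsets of -954 and -678 bp from the start site.

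The ADP/ATP carriers, which exchange matrix ATP for cytosolic ADP, had no parental peak. SLC25A4 had 0.802 and 0.997 RPM in TKO and SLC25A5 had 0.852 and 1.15, both at about the middle of their lists by fold (mean percentiles 47.4 and 52.8). SLC25A6 reached 1.35 and 1.53 RPM and mean percentile 92.8. It lies in the pseudoautosomal region, and each TKO list holds 2 promoter peaks at its X copy and 2 at its Y copy, so its reads may be shared between identical copies and its height is uncertain. SLC25A31, the member of this group known from testis, had no peak.

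Among the carboxylate and amino acid carriers, 12 and 11 of 16 genes had a promoter peak in the TKO libraries and 2 in each parental library. SLC25A45 was the only one of them with a peak in all 4. It had 2.16 and 1.85 RPM in the parental lists and 4.36 and 4.37 in the TKO lists, with summits at offsets of -6, -13, -71 and 12 bp from a start site and a peak at chr11:65149192-65150367 in TKO replicate 1. Its canonical promoter was the one CpG-poor promoter of the 7 genes (ratio 0.340), while the other 6 lay at 0.817 or above.

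SLC25A10, the dicarboxylate carrier, had a peak in parental replicate 1 with 0.833 RPM and in TKO with 2.21 and 2.53. Its summits lay upstream of the start site, at offsets of -399, -366 and -310 bp, in an intron of an overlapping gene annotated only by its identifier, ENSG00000262660. The E-box printed for it was 93 bp from the parental summit, 60 bp from that of TKO replicate 1 and 4 bp from that of TKO replicate 2. The peak stood at percentile 34.1 of the parental list and at percentiles 95.9 and 95.5 of the TKO lists by fold.

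The aspartate-glutamate carriers of the malate-aspartate shuttle were unlike each other. SLC25A13 had a weak peak in parental replicate 2 (14 summit reads, 0.631 RPM) and peaks of 1.15 and 1.69 RPM in TKO. The summit had an offset of -177 bp from the nearest start site in the parental library and of 248 and 494 bp in TKO, so these are not the same position. SLC25A12 had peaks in TKO alone, with 1.30 and 1.53 RPM. By fold it stood at percentiles 24.8 and 0.562 of the TKO lists.

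SLC25A22, a glutamate carrier, had the highest mean percentile of the 26 carriers with a peak in both TKO libraries only (93.8). It had 2.21 and 2.15 RPM, and 5 and 4 separate promoter peaks. SLC25A38, the glycine carrier needed for heme synthesis, had 1.96 and 2.30 RPM. SLC25A15, the ornithine carrier of the urea cycle, had 1.203 and 1.76, with summits in an intron, 287 and 330 bp downstream of a start site. The glutamate carrier SLC25A18, the ornithine carrier SLC25A2 and SLC25A47 had no peak in any list. SLC25A1, the citrate carrier, had a peak in TKO replicate 1 only, with 14 summit reads.

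Other carriers of this role also had peaks in both TKO libraries. SLC25A11, the oxoglutarate carrier, had 1.15 and 1.30 RPM, SLC25A21, an oxodicarboxylate carrier, 1.203 and 2.15, and SLC25A44, which takes up branched-chain amino acids, 1.75 and 1.46. By fold, SLC25A11 stood at percentiles 42.1 and 40.9 of the TKO lists, SLC25A21 at 6.07 and 71.1 and SLC25A44 at 50.7 and 23.3, so the libraries differed at the last 2. None of these genes had a parental peak. SLC25A29, a carrier of basic amino acids, had a peak in TKO replicate 1 only and SLC25A48 in TKO replicate 2 only, with 19 and 14 summit reads.

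In the uncoupling group, named for UCP1, which lets protons leak back in brown fat, 4 and 3 of 6 genes had a promoter peak in TKO and 1 and 0 in parental cells. UCP2, the widely expressed member, had 1.32 RPM in parental replicate 1 and 2.16 and 2.99 in TKO. Its summits lay upstream of the nearest start site, at offsets of -757, -792 and -750 bp, and the E-box printed for it was at -15, -50 and -8 bp from them along the chromosome. SLC25A27, also called UCP4, had 1.504 and 1.76 RPM in TKO alone, and a start site of it is 85 bp from CYP39A1's on the opposite strand. SLC25A14 had a peak in TKO replicate 1 only, and its close relative SLC25A30 had 0.752 and 0.997 RPM in TKO alone. UCP1 itself and UCP3, known from skeletal muscle, had no peak. UCP2 and UCP3 are neighbours on chromosome 11, and the CpG ratios of their promoters were 0.799 and 0.140.

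The cofactor and metal carriers, with the pyrimidine nucleotide carriers counted among them, had more genes bound in parental cells than any other role. They had 5 and 4 of 15 genes bound in the parental lists, against 12.2% and 12.9% of all genes. In the TKO lists 14 and 13 were bound, against 49.1% and 49.7% of all genes. These counts are small. The parental genes include SLC25A32 and SLC25A40, whose summits were nearer to start sites of other genes. SLC25A32, which brings folate into mitochondria for one-carbon metabolism, had the tallest peak of all carriers in each library. It had 2.35 and 2.34 RPM in the parental lists and 6.27 and 6.75 in the TKO lists, or 62, 52, 125 and 88 reads at the summit. Its promoter is shared: the summits fell in a coding exon of DCAF13, which is transcribed from the opposite strand, and were nearer to the start site of DCAF13 than to that of SLC25A32. An E-box lay at -39 and -28 bp from the parental summits and at -117 and -63 bp from the TKO summits along the chromosome.

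The NAD carrier SLC25A51 had 1.51 and 2.07 RPM in the parental lists and 3.71 and 3.37 in the TKO lists. Its summits had offsets of -223, -229, -245 and -233 bp from a start site, nearly the same place in all 4 libraries. Ranked by fold, it stood at percentiles 56.3 and 88.9 among parental peaks and at 96.9 and 94.8 among TKO peaks. In TKO replicate 1 the peak spanned chr9:37904054-37904563. The 120 bases printed for it, which begin at the annotated end of the gene and run upstream, hold neither CACGTG nor the variant CACGCG on either strand, and 1 CACGTG lay elsewhere within 500 bp of the canonical start site. The other NAD carrier gene, SLC25A52 on chromosome 18, has a canonical transcript of 1 exon and had no peak.

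SLC25A26, which imports S-adenosylmethionine and had its TKO replicate 1 peak at chr3:66271183-66271829, had 1.40 and 1.08 RPM in the parental lists and 3.11 and 3.30 in the TKO lists. The glutathione carriers SLC25A39 and SLC25A40 differed. SLC25A40 had 0.833 and 0.721 RPM in the parental lists and 2.01 and 2.45 in the TKO lists, with its summits in a UTR exon of the opposite-strand gene DBF4, nearer to the start site of DBF4. SLC25A39 had peaks in TKO alone, with 1.75 and 2.53 RPM and mean percentile 90.3.

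The mitoferrins import iron. SLC25A28 had 0.984 RPM in parental replicate 1 and 2.06 and 3.14 in TKO. Its summit offsets were -62 bp in parental replicate 1 and -601 and -22 bp in TKO, so TKO replicate 1 had its summit elsewhere. SLC25A37, the form known from erythroid cells, had 1.00 and 1.15 RPM in TKO alone. The pyrimidine nucleotide carriers both had peaks in TKO alone, SLC25A33 with 1.00 and 1.30 RPM and SLC25A36 with 1.55 and 1.92. SLC25A16, SLC25A17 and SLC25A20, the last being the carnitine-acylcarnitine carrier of fatty acid oxidation, had peaks in TKO alone, with 1.00 to 1.92 RPM. The percentiles by fold were 51.1 and 56.8 at SLC25A16 and 60.7 and 48.3 at SLC25A20, while SLC25A17 stood at 21.5 in TKO replicate 1 and 82.6 in TKO replicate 2. SLC25A42, a carrier of coenzyme A, had a peak only in TKO replicate 1, with 13 reads at the summit.

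The 3 outer membrane members had promoter peaks in TKO alone, each in both libraries, as did 29.7% of all genes. MTCH2, which inserts proteins into the outer membrane, had 2.16 and 2.45 RPM and mean percentile 85.9. MTCH1 had 1.55 and 2.15 RPM but stood at percentiles 49.2 and 2.29, with a local background of 4.99 and 7.91 reads against 4.03 and 2.64 at MTCH2. SLC25A46, known for its part in mitochondrial shape, had 1.45 and 1.99. Of the 4 genes without a settled substrate, SLC25A43 had a peak in both TKO libraries, SLC25A35 and SLC25A53 in TKO replicate 2 only, and SLC25A34 in none.

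The 26 carriers with peaks only in TKO were compared with the peaks that could be called in parental cells. The lowest summit in the list of parental replicate 1 had 0.492 RPM and the median summit had 1.25. In all 26 the lower of both TKO values was above 0.492, as it was in 100% of all genes of this class. That outcome was fixed, since no promoter summit of any gene was below 0.501 RPM in TKO replicate 1 or 0.614 in TKO replicate 2. These RPM were not divided by the extension length, which was longer in TKO. In 14 of 26 (53.8%, and 54.2% of those 5886 genes) it was above 1.25. The lack of a parental peak says that none was called at this depth and threshold, not that Myc was absent.

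Carrier genes had more promoter peaks each in TKO. The totals were 11 and 9 peaks over 53 genes in the parental lists and 63 and 54 in the TKO lists, that is 0.189 ± 0.0267 and 1.104 ± 0.120 peaks per gene (SD, n = 2 each). The ratio was 5.85 (exact permutation p = 0.333), and 4.92 over all genes. At least 2 promoter peaks were found at 1 carrier in each parental library, which was SLC25A32, and at 19 and 10 of 53 carriers in TKO. Over all 19785 genes the numbers were 251, 231, 3122 and 2908. With equally long lists the ratio was 1.63.

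Summits of carriers in parental cells lay mostly upstream of the start site, at 9 of 10 and 7 of 8 genes, against 61.5% and 66.8% of all genes with a promoter peak. In TKO 53.7% and 47.5% lay upstream, against 55.4% and 55.9% of all genes. Within 300 bp of the start site were 8 of 10 and 8 of 8 summits in parental cells, and 28 of 41 and 27 of 40 in TKO. These are 80%, 100%, 68.3% and 67.5%, against 76.2%, 76.9%, 69.8% and 70.8% of all genes in the same order.

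**Figure D4:**
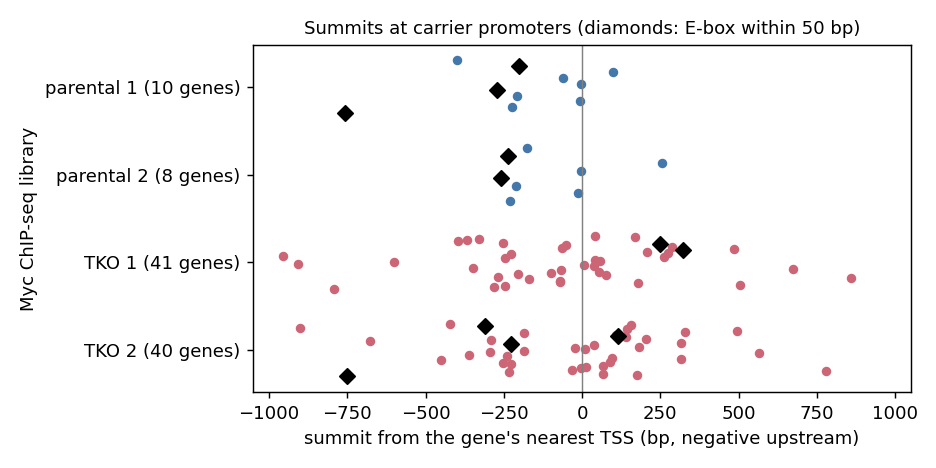
Each point is the summit of a carrier's strongest promoter peak, by its distance from the gene's nearest TSS in bp (horizontal axis, negative upstream) in each Myc library, and black diamonds mark summits with CACGTG within 50 bp. Of the summits, 9 of 10 and 7 of 8 lie upstream in the parental libraries, and diamonds mark 3, 2, 2 and 4 genes in the 4 libraries from top to bottom.

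The E-box share of carrier summits was lower in TKO. CACGTG, which reads the same on both strands, lay within 50 bp of the summit at 3 of 10 and 2 of 8 carriers in parental cells (30% and 25%) and at 2 of 41 and 4 of 40 in TKO (4.88% and 10%). The difference of the means, TKO minus parental, was -20.1 percentage points (exact permutation p = 0.333), and -16.7 with equally long lists. Over all genes with a promoter peak the shares were 21.6%, 18.5%, 9.14% and 8.10% in the same order. Within 100 bp the carrier shares were 40%, 37.5%, 26.8% and 20%, against 30.2%, 27.02%, 14.4% and 12.7% of all genes, so the TKO values depend on the window. The shares of other SLC genes within 100 bp were 42.9%, 28.6%, 17.5% and 24.6%. The variant CACGCG or CGCGTG was within 50 bp of 0 of the 10 and 8 parental carrier summits and of 4 and 2 of those in TKO. Over all genes its shares were 15.3%, 13.7%, 10.1% and 9.51%.

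The E-box was also counted in the promoters themselves, without regard to the summits. Within 500 bp of the canonical start site, 22 of 53 carriers (41.5%) had at least 1 CACGTG, against 20.9% of other SLC genes and 18.3% of all genes with a sequence. Among the 26 carriers with peaks only in TKO it was 13 (50%), against 18.8% of all genes and 27.6% of other SLC genes of that class. Carriers without a peak also had a higher share, 3 of 9 (33.3%), against 13.4% of all genes and 16.4% of other SLC genes without a peak. At the 7 carriers with a peak in all 4 libraries it was 42.9%, against 40.1% of all such genes, and at the 7 with a peak in 1 TKO library 14.3%, against 13.6% of all genes and 26.3% of other SLC genes. These shares were not tested. CACGTG itself holds a CpG, and the part of the CpG content of carrier promoters in this share was not tested. SLC25A31 had 4 E-boxes in this window and no Myc peak.

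The 9 carriers without a peak had a median CpG ratio of 0.399, against 0.793 over all carriers, and 5 of the 9 were below 0.4. UCP3 (0.140), SLC25A47 (0.156), SLC25A34 (0.281), SLC25A18 (0.313) and SLC25A41 (0.399) were those 5. SLC25A2, SLC25A31 and UCP1 had no peak at ratios of 0.791, 0.851 and 0.719. Both carriers with a canonical transcript of a single exon, SLC25A2 and SLC25A52, were in this class. Over all genes the class without a peak also had the lowest median, 0.450.

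**Figure D5:**
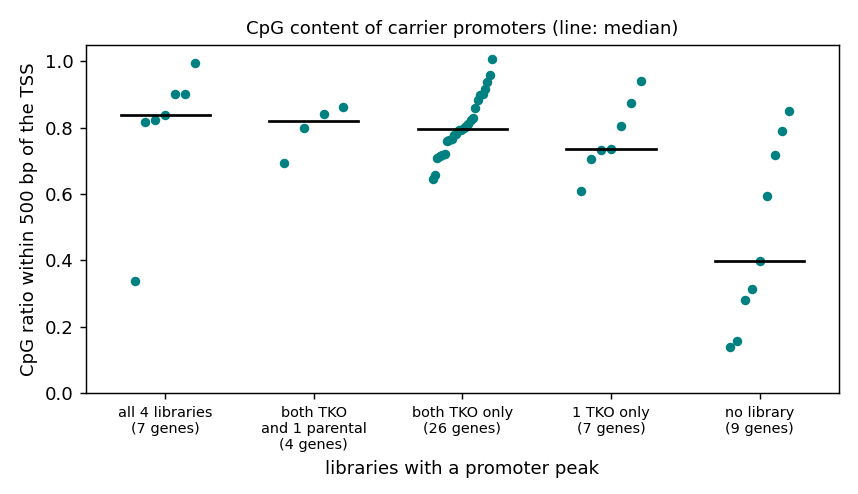
Points give the CpG ratio within 500 bp of the canonical TSS (vertical axis) for the 53 carriers, sorted by the libraries in which they had a promoter peak, with a line at each median. The medians are 0.838, 0.820, 0.796, 0.736 and 0.399 from left to right, and the low point on the left is SLC25A45 at 0.340.

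Start sites of other genes on the opposite strand lay within 300 bp of a start site of 5 carriers, over all basic transcripts of the carrier. Of these, SLC25A32 and SLC25A40 had peaks in all 4 libraries, SLC25A11 and SLC25A27 in both TKO libraries only, and SLC25A48 in 1 TKO library. At SLC25A11 the summits were nearer to the start site of RNF167. Without the 3 carriers whose summits were nearer to the start site of another gene, the ratio of bound carriers between TKO and parental cells was 5.36, an alternative chosen after the data were seen.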

How the data were processed

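Myc ChIP-seq peak lists of 4 libraries were used. Per the labels and the methods, the authors aligned single reads to hg19 with Novoalign 3.08.02 and called peaks with MACS2 2.1.1.20160309 in each Myc library with the input of its line as control. The deposited lists give each peak's fold over local background (a ratio), −log10 p-value, −log10 q-value and a score derived from q. The lowest −log10 q-value was 2.03 to 2.07. The handling of duplicate reads is not given in the sources used here.

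Summits were assigned to start sites of basic protein-coding transcripts of GENCODE 44 lifted to GRCh37, with chrM left out and pseudoautosomal genes counted once. Summit reads were solved from fold and p-value as whole reads, which matched 100% of peaks to 0.002 in −log10 p. Depth assumes a genome of 2700000000 bases, and counting error is not included in the SDs. Percentiles rank peaks within a list by fold. Assignment and recovery were tested on simulated data.

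Library values were permuted exactly between groups (two-sided). The p-values measure the spread between these libraries only. The members, gene lists, tests and alternatives were chosen with earlier results of these data known. Named genes were carriers with peaks in both parental libraries, the 10 with peaks in both TKO libraries only and the highest mean percentile by fold in TKO, listed paralog groups and carriers without a peak. Others named were chosen after their values were seen. The values of 1 carrier are counted but not reported here. In the labels, same-numbered libraries of both lines share only a number. The correlation of their deviations was 0.0722 over 1843 genes, which cannot show whether they were prepared together. Alternatives were stricter q or fold, equal list lengths, other windows and transcripts, libraries left out and a replicate block. Software was samtools 1.23.1, pysam 0.24.0, pandas 2.3.3, scipy 1.17.1, numpy 2.4.6 and matplotlib 3.10.9 in Python 3.11.15.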

Additional observations from a re-analysis of the deposited data

How the results depend on the processing

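With lists of 3720 peaks each, the TKO to parental ratio was 1.6 for bound carriers, 1.7 for other bound SLC genes and 1.63 for promoter peaks per carrier gene, and the carrier minus other SLC difference was 8.01 percentage points, so these sizes follow the length of the lists. The other 60 values under alternatives kept the direction of those reported, but some sizes changed. With a fold of at least 5 the ratio was 5.58 for bound carriers and 5.74 for other bound SLC genes. Without parental replicate 2 these ratios were 4.05 and 4.5, so which set had the higher ratio was not stable. Among CpG-rich promoters the difference to other SLC genes was 16.1 points. A 3 kb window gave -27.4 points for the E-box share. Leaving out 1 library at a time gave ratios of 4.05 to 5.06 for bound carriers, 3.6 to 4.5 for other SLC genes, 5.32 to 6.5 for peaks per gene and 2.07 to 2.22 for summit reads. It gave differences of 17.1 to 28.5 points to other SLC genes and -22.6 to -17.5 points for the E-box share. A replicate block gave 4.53, 4.02, 5.86 and 2.14 for the 4 ratios (exact permutation p = 0.5, the smallest it allows) and changed no call. The number of libraries let no test pass 0.05. Counts of 2 to 4 E-box summits in a library limit that share. A parental promoter without a peak may hold reads below the calling threshold, where the lowest summits called had 0.492 and 0.451 RPM.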

Other observations

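Peaks inside carrier genes but outside the promoter window were called in TKO alone, with 10 in each TKO library and 0 in each parental library. Such peaks were not counted over all genes or with equally long lists, and the TKO lists were the longer ones. So these counts do not show whether carriers differ from other genes. SLC25A37, the mitoferrin known from erythroid cells, held 4 and 5 of them, and the others were spread over genes with at most 1 peak each.

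Other mitochondrial transport genes, 26 in a list of porins, pyruvate carriers, sideroflexins, calcium uniporter subunits and ABC transporters, were counted in the same way. A promoter peak was found at 6 and 3 of them in the parental libraries (23.1% and 11.5%, against 12.2% and 12.9% of all genes). In the TKO libraries it was 23 and 24 (88.5% and 92.3%, against 49.1% and 49.7% of all genes). SFXN2 and ABCB8, a sideroflexin and an ABC transporter of the inner membrane, had a peak in all 4 libraries. The porin VDAC1 had a peak in parental replicate 1, at percentile 21.6 by fold, and in both TKO lists at percentiles 92.4 and 94.95. VDAC3 was the only gene of the list without a peak in any library. ABCB10, known for its part in heme synthesis, had peaks in TKO alone, at percentiles 97.8 and 98.3. No test compared this list with the carriers.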
